A study of Homo sapiens with 3 samples.

Results

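The genes described here are those whose symbol starts with ZSCAN, ZKSCAN or ZBTB in the annotation of the array, 69 of the 18132 genes that had a probe set with a single symbol. They divide into 19 ZSCAN, 8 ZKSCAN and 42 ZBTB symbols and were read by 181 probe sets, with 1 probe set for 18 genes and up to 7 for the others. Expression was measured in KYSE150, a human cell line established from an esophageal squamous carcinoma, with 1 PrimeView array for each of 3 groups. The first group overexpressed LOXL2 Δe13, a splice form of the amine oxidase LOXL2, the second overexpressed wild-type LOXL2, and the control was transfected with an empty vector. All 3 groups are thus transfected KYSE150 cells, and the sources used here do not give how many clones or cultures stand behind an array. The comparisons ask how expression differs when either form of LOXL2 is overexpressed, and between the forms.

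ZSCAN, ZKSCAN and ZBTB proteins bind DNA through arrays of C2H2 zinc fingers and differ in the domain at their amino-terminal end. The SCAN domain lets ZSCAN and ZKSCAN proteins pair with each other, and ZKSCAN proteins also carry a KRAB domain. In many zinc finger proteins a KRAB domain recruits the corepressor TRIM28 and through it histone methylation by SETDB1. Whether the ZKSCAN proteins do so was not measured here. The BTB domain of ZBTB proteins forms dimers and recruits corepressors such as BCOR and histone deacetylases. ZBTB factors are best known from blood cell fate, from binding of methylated DNA and as partners of MYC, while many SCAN proteins have no well-described targets.

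Values are log2 probe set signals, and a difference is a log2 difference between arrays unless it is called a fold. With 1 array per group there is no spread between replicates, so no test or p-value is given, and higher and lower describe these arrays. The one repeat measurement is between probe sets of the same gene. For probe sets above the detection floor the standard deviation of their differences within a gene was 0.13 when Δe13 was set against the empty vector, 0.16 when wild type was, and 0.13 between the LOXL2 forms, over 17947 probe sets of 5962 genes. Among the members alone it was 0.17, 0.22 and 0.16, over 59 probe sets of 22 genes. These spreads leave out variation between cultures.

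The arrays had medians of 5.95, 5.93 and 5.95 for Δe13, wild type and empty vector. Of 4 LOXL2 probe sets one read 10.77, 10.22 and 5.06 in the same order and another 7.94, 8.07 and 5.38, so the overexpressed gene was high where the labels place it. One was high only for wild type (7.41, 14.05 and 7.46), and one was not higher in either LOXL2 array (8.73, 8.32 and 8.81). Of the epithelial markers analysed, KRT5, KRT14, CDH1 and EPCAM passed the detection floor and SOX2 did not (mean 5.86), and KRT14 read 7.30, 7.08 and 7.76. KRT6A, KRT17 and TP63 were not analysed here. Of 7 leukocyte markers 1, CD68, passed the floor, at 8.60, 8.44 and 8.97, and PTPRC had a mean of 2.93. The log2 of their summed signal was 8.98, 8.85 and 9.29. One of 8 fibroblast markers passed, PDGFRB, with summed signals between 7.54 and 7.55. The actin probe sets at the 3' end exceeded those at the 5' end by 1.38, 1.46 and 1.26. Background probe sets rich in G and C (16 to 25 of the 25 probe bases) differed from the empty vector array by a median of -0.06 for Δe13 and -0.22 for wild type, while those with 3 to 15 such bases differed by 0.00 and 0.00. Their part in the differences reported here was not tested.

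Promoter sequences are shown for members with large differences, ahead of their values. ZSCAN29 and ZBTB21 are the detected members more than 1.5-fold higher in the wild-type array, ZBTB2 lies just short of that size, ZSCAN12 had the largest difference of any member but was not detected, and ZBTB5 was the lowest member in the wild-type array. Each sequence is the 250 bases before the RefSeq start that lies farthest upstream, read 5' to 3' on the gene's strand in build GRCh38.p14, all on the minus strand: chr15:43371044-43371293 for ZSCAN29, chr21:42010361-42010610 for ZBTB21, chr6:151391560-151391809 for ZBTB2, chr6:28399748-28399997 for ZSCAN12 and chr9:37465451-37465700 for ZBTB5. Capitals mark every match, on either strand, to the ETS core CCGGAAG, the NRF1 core GCATGCG, the cyclic AMP element TGACGTCA, the E-box CACGTG, the GC box GGGCGG or the TATA box TATAAA. No one of these motifs contains another.
ZSCAN29: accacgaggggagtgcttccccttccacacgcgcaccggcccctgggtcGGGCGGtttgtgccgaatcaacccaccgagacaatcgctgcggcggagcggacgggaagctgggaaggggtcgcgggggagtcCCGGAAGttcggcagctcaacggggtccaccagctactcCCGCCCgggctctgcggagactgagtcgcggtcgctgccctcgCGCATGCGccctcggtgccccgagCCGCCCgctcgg
ZBTB21: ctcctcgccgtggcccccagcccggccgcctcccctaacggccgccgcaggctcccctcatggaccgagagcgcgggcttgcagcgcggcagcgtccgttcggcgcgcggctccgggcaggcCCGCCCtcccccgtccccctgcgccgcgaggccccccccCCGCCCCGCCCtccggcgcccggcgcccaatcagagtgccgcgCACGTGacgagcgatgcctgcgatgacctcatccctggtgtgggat
ZBTB2: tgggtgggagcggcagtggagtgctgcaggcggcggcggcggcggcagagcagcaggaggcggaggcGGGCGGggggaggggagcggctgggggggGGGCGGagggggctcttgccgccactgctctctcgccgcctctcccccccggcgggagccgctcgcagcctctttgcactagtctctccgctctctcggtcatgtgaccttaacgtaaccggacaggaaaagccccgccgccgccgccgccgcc
ZSCAN12: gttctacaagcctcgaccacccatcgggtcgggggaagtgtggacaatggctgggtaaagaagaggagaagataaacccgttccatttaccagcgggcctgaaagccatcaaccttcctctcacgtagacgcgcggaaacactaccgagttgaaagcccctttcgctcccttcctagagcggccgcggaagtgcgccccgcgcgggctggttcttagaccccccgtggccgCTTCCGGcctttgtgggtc
ZBTB5: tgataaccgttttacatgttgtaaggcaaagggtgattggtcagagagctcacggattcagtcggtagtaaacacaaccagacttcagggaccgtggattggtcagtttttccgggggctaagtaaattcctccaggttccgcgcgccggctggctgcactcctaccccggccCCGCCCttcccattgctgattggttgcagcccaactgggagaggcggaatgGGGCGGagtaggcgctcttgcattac

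The ZSCAN29 window held an ETS core starting 118 bases before the start, overlapping NRF1 cores on opposite strands at 36 and 35, and 3 GC boxes, with a G and C content of 72%. The ZBTB21 window, at 78.4%, held an E-box at 46 and 3 GC boxes. ZBTB2 had 2 GC boxes, ZSCAN12 had 1 ETS core at 19 bases and ZBTB5 had 2 GC boxes. ZSCAN12 has 3 windows, and those not shown also held E-box and GC box matches. RefSeq windows were matched for 58 of the 69 genes, 107 windows in all, since a gene can have several starts that overlap. The ETS core was found in 24 of these windows (22.4%), compared with 14.3% of the 12843 windows of all detected genes and 8.52% of all 35116 windows. It lay in windows of 22 members, among them ZSCAN9, ZSCAN31, ZKSCAN1, ZKSCAN3, ZBTB24, ZBTB38 and ZBTB43. GC boxes were in 57.0% of member windows and 63.8% of those of detected genes, E-boxes in 9.35% and 8.54%, cyclic AMP elements in 2.80% and 2.55%, NRF1 cores in 3.74% and 5.07%, and TATA boxes in 6.54% and 5.93%. A match describes the letters in the window and is not a measured binding site.

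Each gene was read from whichever of its probe sets had the highest mean over the 3 arrays. It counted as detected when that mean was at least 5.94, the median of all non-control values. By this rule 46 of the 69 members were detected, or 66.7%, where 10703 of all 18132 genes were, or 59.0%. The share was 11 of 19 ZSCAN genes (57.9%), 5 of 8 ZKSCAN genes (62.5%) and 30 of 42 ZBTB genes (71.4%). Just inside the floor lay ZBTB7A, a repressor of fetal globin genes, with a mean of 5.95, and ZBTB47 at 5.99. Just outside lay ZBTB20, a repressor of the fetal liver gene AFP, at 5.85 and the stem cell factor ZSCAN10 at 5.83. ZBTB7A was at or above the floor on 1 of the 3 arrays, that of wild type, and every other detected member was so on all 3. Of the GC-rich background probe sets 6 of 10 also lay above this floor on all arrays, so passing it does not by itself show expression. Signals of different probe sets cannot be compared as RNA levels.

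**Figure D1:**
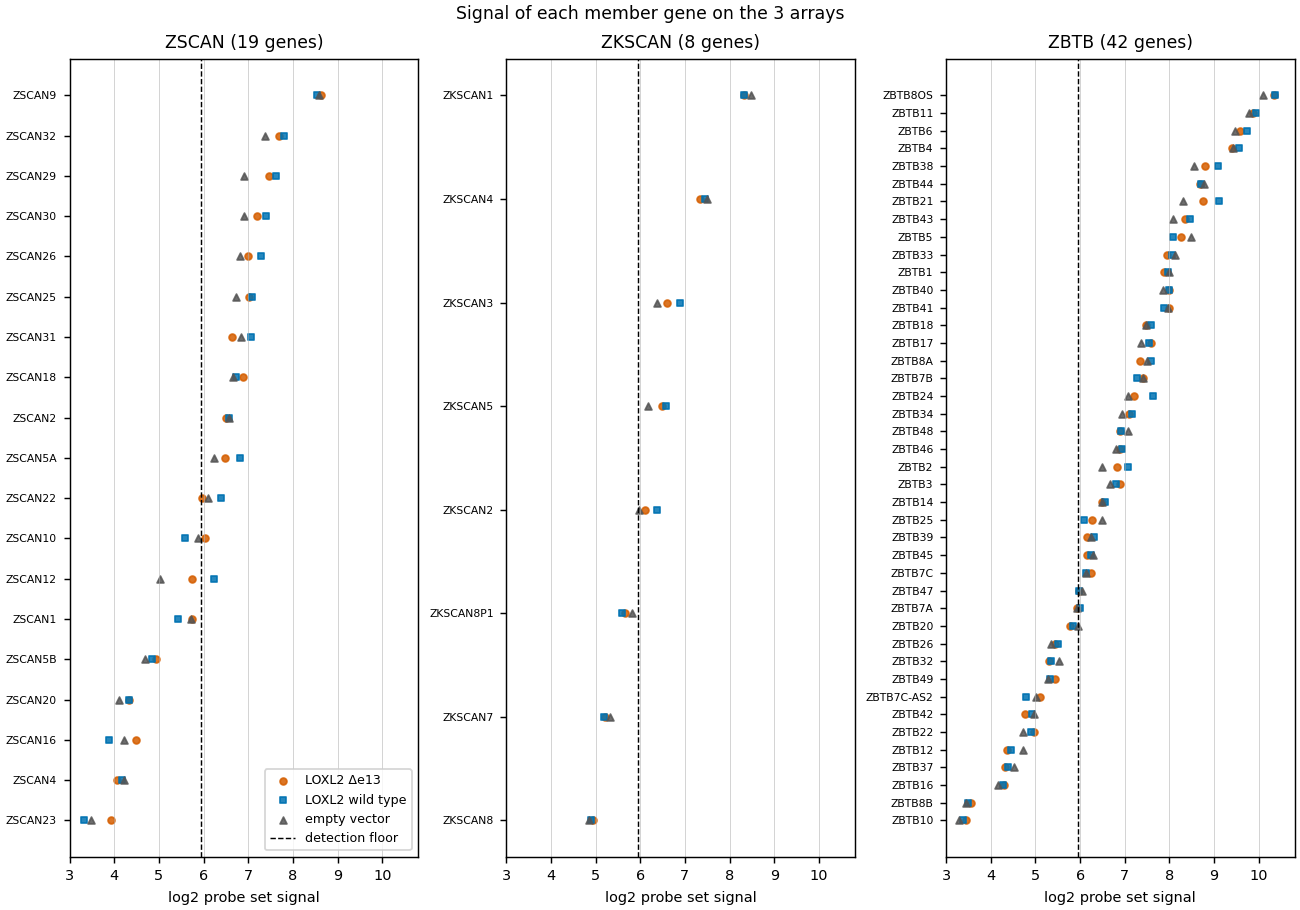
Log2 signal of each of the 69 member genes (rows) on the LOXL2 Δe13 (circles), LOXL2 wild-type (squares) and empty vector (triangles) arrays, with the dashed detection floor at 5.94. The 3 symbols of a gene lie close together for most genes, and ZSCAN12 has the widest gap, from 5.03 to 6.24.

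Members not detected include several with well-known roles in other tissues. ZBTB16 (PLZF), a factor of innate-like T cells and a fusion partner in leukemia, read 4.30 in the Δe13, 4.28 in the wild-type and 4.16 in the empty vector array. ZSCAN4, a gene of early embryos and telomere maintenance, read 4.05, 4.16 and 4.21 in that order. ZBTB32, a repressor in lymphocytes, read 5.30, 5.36 and 5.52. None of these reached the floor on any array. ZBTB20 reached it in the empty vector array alone, at 5.94, ZSCAN10 in the Δe13 array alone, at 6.04, and ZSCAN12 in the wild-type array alone, at 6.24. The other undetected members had means between 3.37 for ZBTB10 and 5.69 for the pseudogene ZKSCAN8P1.

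Read from their highest probe sets, the detected members were more often higher than lower in both LOXL2 arrays, by small amounts. For Δe13 minus the empty vector 28 of 46 were higher and 17 lower, with ZBTB7A equal, and the median was 0.08. With the median over probe sets in place of the highest one, this median was -0.0081, so the direction for Δe13 depended on how probe sets were read. For wild type minus the empty vector 33 of 46 were higher and the median was 0.13, or 0.17 with the median over probe sets. The 33 include ZBTB7A, at 0.08, whose signal reached the detection floor only in the wild-type array. Over all 10703 detected genes 48.3% were higher in the first comparison, with a median of -0.01, and 50.1% in the second, with a median of 0.00. Both comparisons use the same empty vector array, so they are not separate evidence.

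Few members reached 1.5-fold on their highest probe sets. In the Δe13 array 0 of 46 were at least 1.5-fold higher, where 0.336% of all detected genes were, and 0 were at least 1.5-fold lower, where 0.28% were. In the wild-type array 2 of 46 were at least 1.5-fold higher, ZBTB21 and ZSCAN29, against 1.91% of all detected genes, and 0 were that much lower, against 0.869%. The share among members thus rests on 2 genes. Of the 268 detected genes named ZNF 22 were at least 1.5-fold higher in the wild-type array and 3 at least 1.5-fold lower. No detected member reached 2-fold in any comparison on its highest probe set. Another probe set of ZSCAN9, also above the floor, was 1.22 above the control in the wild-type array. With the median over probe sets, 2 of 31 detected members were at least 1.5-fold higher for Δe13 and 3 for wild type. Of all genes detected in that setting 35 and 153 were.

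The prefixes differed in where their detected genes lay. ZSCAN genes had a median difference of 0.21 in the Δe13 array with 8 of 11 higher, and of 0.35 in the wild-type array with 10 of 11 higher. Of the 8 undetected ZSCAN genes 3 were higher in the wild-type array, with a median of -0.10, and over all ZSCAN genes without a floor that median was 0.21. ZKSCAN genes had medians of 0.13 and 0.39 with 3 of 5 higher each time. ZBTB genes had medians of 0.01 and 0.10, with 17 and 20 of 30 higher, and the first of these medians was -0.026 with the median over probe sets. The 268 detected genes named ZNF, most of them other C2H2 zinc finger genes, had medians of 0.05 and 0.14, with 59.0% and 69.0% higher in the 2 arrays. ZBTB genes thus lay at or below the ZNF genes and ZSCAN genes above them, a difference that could not be tested with 1 array per group. The ZSCAN medians stayed between 0.20 and 0.21 for Δe13 and between 0.34 and 0.37 for wild type when arrays were centred on the median, quantile normalized or adjusted by loess.

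**Figure D2:**
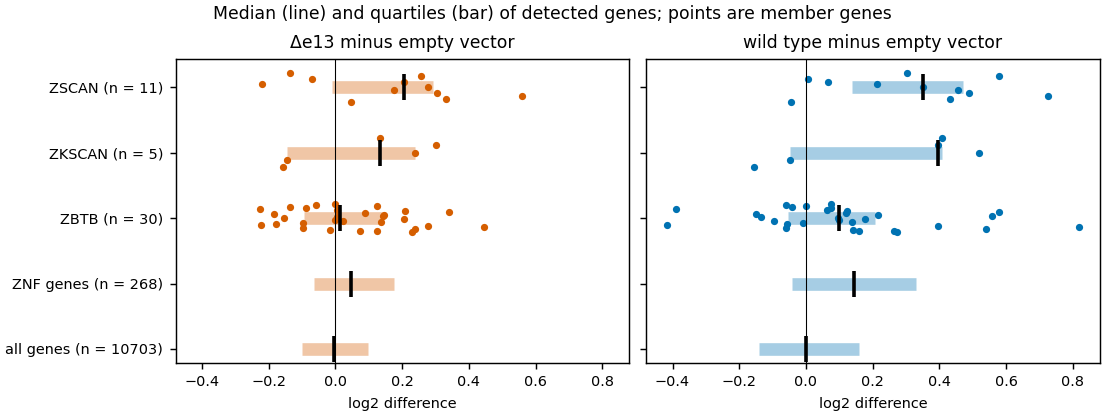
Log2 differences of detected genes from the empty vector array, for Δe13 (left) and wild type (right); black lines are medians, bars span the quartiles and points are member genes. The wild-type median is 0.35 for ZSCAN, 0.39 for ZKSCAN, 0.10 for ZBTB, 0.14 for ZNF genes and 0.00 for all genes.

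The choice of genes matters for the ZSCAN and ZKSCAN medians, which rest on 11 and 5 genes. With a floor at the 75th percentile of values (7.86) 1 ZSCAN gene remained, ZSCAN9, at 0.05 and -0.05, and 1 ZKSCAN gene, ZKSCAN1, at -0.16 in each LOXL2 array. When probe sets of a gene were combined by their median, 6 ZSCAN genes were detected, and their wild-type median was 0.55.

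On highest probe sets, the largest differences among detected ZSCAN genes were those of ZSCAN29, whose promoter opens the set above. It read 7.46 in the Δe13, 7.62 in the wild-type and 6.90 in the empty vector array. Both LOXL2 arrays were above the control, by 0.56 (1.47-fold) and 0.72 (1.65-fold). Its other probe set, below the floor, gave 0.49 and 0.72. Other ZSCAN genes were likewise lowest in the empty vector array and highest in the wild-type array. ZSCAN32 read 7.69, 7.80 and 7.36, a difference of 0.33 for Δe13 and 0.43 for wild type, and its other probe set above the floor gave 0.41 and 0.38. ZSCAN30 read 7.20, 7.38 and 6.89, or 0.31 and 0.49 above the control, but its other probe set above the floor gave 0.18 and 0.14, and with the median over all its probe sets the wild-type difference was -0.03. These 2 genes lay less than 1.5-fold from the control in both arrays. ZSCAN25 read 7.01, 7.08 and 6.73, differences of 0.28 and 0.35.

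ZSCAN5A and ZSCAN26 had the same order of arrays. ZSCAN5A read 6.48, 6.80 and 6.23 on its single probe set, a wild-type difference of 0.58 that fell just short of the 1.5-fold bound. ZSCAN26 read 6.99, 7.27 and 6.82. All 4 of its probe sets above the floor were higher in the wild-type array, by 0.19 to 0.54, and their Δe13 differences ran from -0.04 to 0.17. ZSCAN31 read 6.62, 7.05 and 6.84, which placed the Δe13 array below the control (-0.22) and the wild-type array above it (0.21). ZSCAN22 likewise had the Δe13 array lowest and the wild-type array highest, at 5.96, 6.40 and 6.10, with the Δe13 signal just above the floor. Its other probe set, below the floor, had the opposite directions, at 0.09 for Δe13 and -0.15 for wild type. ZSCAN18 had the Δe13 array highest, with 6.87 for Δe13, 6.73 for wild type and 6.66 for the control. ZSCAN2 read 6.50, 6.58 and 6.57 on its highest probe set, or -0.07 and 0.01, and its other probe set above the floor gave 0.07 and 0.25.

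Read from the highest probe set of each gene, ZSCAN12 had the largest difference of the 69 genes. Its highest probe set read 5.74 in the Δe13, 6.24 in the wild-type and 5.03 in the empty vector array, differences of 0.72 and 1.21. With a mean of 5.67 it was not detected, and a floor on the mean would pass it only through its wild-type signal. Its other probe sets differed by -0.04 and 0.23 for Δe13 and by 0.00 and 0.32 for wild type, so with the median over probe sets the Δe13 difference turned to -0.04.

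**Figure D3:**
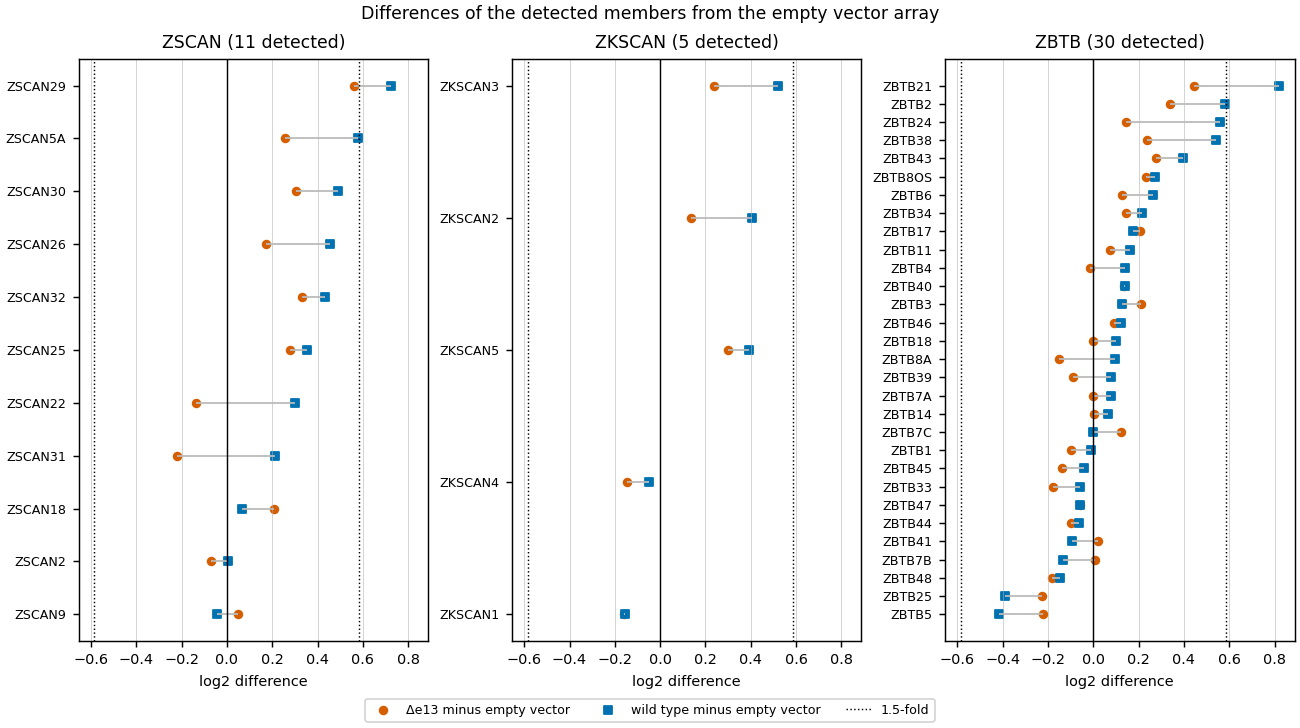
Log2 difference of each detected member from the empty vector array, for Δe13 (circles) and wild type (squares), joined by a line; dotted lines mark 1.5-fold. ZBTB21 and ZSCAN29 pass the upper dotted line in the wild-type array, and ZBTB5 and ZBTB25 are the lowest genes there.

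Read from their highest probe sets, 3 of the 5 detected ZKSCAN genes were higher than the control and 2 lower in both LOXL2 arrays. ZKSCAN3, a repressor of autophagy genes, read 6.61, 6.89 and 6.37, or 0.24 and 0.52 above the control, and its other probe set gave 0.15 and 0.48. ZKSCAN5 read 6.48, 6.58 and 6.18, or 0.30 and 0.39, and ZKSCAN2 read 6.11, 6.38 and 5.97, or 0.13 and 0.41. On their highest probe sets these 3 genes were lowest in the empty vector array and highest in the wild-type array. With the median over all probe sets, those below the floor included, the wild-type difference was -0.0013 for ZKSCAN5 and -0.11 for ZKSCAN2. ZKSCAN1, whose exons also give a well-known circular RNA, read 8.31, 8.31 and 8.47 on its highest probe set, which was -0.16 in both LOXL2 arrays. Its other probe sets above the floor gave -0.03 and 0.27 for Δe13 and -0.01 and 0.20 for wild type, so the direction depended on the probe set. ZKSCAN4 read 7.35, 7.44 and 7.49, or -0.14 and -0.05. ZKSCAN7 and ZKSCAN8 were not detected, with means of 5.24 and 4.90.

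Among ZBTB genes ZBTB21 had the largest difference. It read 8.74 in the Δe13, 9.11 in the wild-type and 8.29 in the empty vector array, or 0.44 (1.36-fold) and 0.82 (1.76-fold) above the control. Its other probe sets gave 0.18 and 0.54 on one and 0.24 and 0.10 on the other, all in the same direction. The highest probe set carries the maker's suffix for probes shared between transcripts, and without such probe sets ZBTB21 was 0.54 above the control in the wild-type array and no longer past 1.5-fold. ZBTB2 read 6.84, 7.08 and 6.50, or 0.34 and 0.58, and its other probe set gave 0.09 and 0.10. ZBTB24, which is mutated in an immunodeficiency with unstable centromeric DNA, read 7.21, 7.63 and 7.07, so that the wild-type array was 0.56 above the control and the Δe13 array 0.14. That probe set may also read related sequences by its suffix, and the other probe sets of ZBTB24 lay below the floor, at 0.51 and 0.34 above the control in the wild-type array.

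ZBTB38, which binds methylated DNA, read 8.79, 9.09 and 8.55 on its highest probe set, or 0.24 and 0.54 above the control. The other 2 probe sets above the floor gave 0.68 and 0.81 for Δe13 and 0.48 and 0.73 for wild type. Both LOXL2 arrays were above the control on all 3 of them, and which of the LOXL2 arrays was higher depended on the probe set. ZBTB43 read 8.35, 8.46 and 8.07, and its 4 probe sets agreed closely, with differences of 0.28 to 0.35 for Δe13 and 0.18 to 0.40 for wild type.

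The other methyl-DNA-binding ZBTB factors differed little on their highest probe sets. ZBTB4 read 9.40, 9.56 and 9.42, or -0.01 and 0.14, but its probe sets above the floor ran from -0.32 to 0.05 for Δe13 and from -0.30 to 0.15 for wild type. ZBTB33, the factor Kaiso itself, read 7.94, 8.06 and 8.12, or -0.18 and -0.06. ZBTB17, the MYC partner MIZ1, read 7.58, 7.55 and 7.37, or 0.21 and 0.18, but its other probe sets lay below the floor and with the median over all of them it was at -0.12 and -0.02. ZBTB18, a repressor in developing neurons, read 7.47, 7.58 and 7.48. The dendritic cell factor ZBTB46 differed by 0.09 and 0.12 on its highest probe set and by -0.37 and -0.22 on its other probe set above the floor, so its direction depended on the probe set. ZBTB40 differed by 0.14 and 0.14, with probe sets above the floor running from -0.09 to 0.31 for Δe13 and from 0.03 to 0.31 for wild type. ZBTB48, a protein of telomere repeats, read 6.88, 6.92 and 7.07, or -0.18 and -0.15. ZBTB7B, which directs T cells to the helper lineage, read 7.41, 7.27 and 7.41, and of its other probe sets above the floor one gave -0.40 for Δe13. ZBTB11 read 9.86, 9.95 and 9.79. ZBTB6 read 9.59, 9.73 and 9.46, or 0.13 and 0.26. The remaining detected ZBTB genes, ZBTB1, ZBTB3, ZBTB14, ZBTB34, ZBTB39 and ZBTB45, lay between -0.14 and 0.21 for Δe13 and between -0.04 and 0.22 for wild type.

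The detected members furthest below the control were ZBTB5 and ZBTB25. ZBTB5, a repressor of the cell cycle inhibitor gene CDKN1A, read 8.26 in the Δe13, 8.07 in the wild-type and 8.49 in the empty vector array, or -0.22 and -0.42. Its other probe set, below the floor, gave -0.02 and -0.04. ZBTB25 read 6.26, 6.09 and 6.48 on its single probe set, or -0.23 and -0.39. In both genes the control was highest and the wild-type array lowest, and neither reached 1.5-fold. ZBTB41, ZBTB44 and ZBTB47 completed the 8 lowest detected members in the wild-type array, at -0.10, -0.06 and -0.06. ZBTB8A was among the lowest detected members in the Δe13 array at -0.15. In the Δe13 array 14 of the 46 detected members lay within 0.1 of the control, and in the wild-type array 16 did. Of all 10703 detected genes 5406 and 3785 lay that close in the same 2 arrays.

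The Δe13 and wild-type arrays were also compared directly, to set the splice form against the full form. Of the 46 detected members 36 were lower in the Δe13 array and 10 higher, with a median of -0.09. ZBTB7A, which reached the floor only in the wild-type array, is among the 36. Over all detected genes 45% were higher in the Δe13 array, with a median of -0.02. None of the 46 differed by 1.5-fold, where 0.159% of all genes were that much higher and 0.0747% that much lower. The median was -0.16 for ZSCAN, -0.10 for ZKSCAN and -0.07 for ZBTB genes, and -0.10 for the ZNF genes. This comparison shares each of its arrays with one of those above. The GC-rich background probes had a median of 0.16 in this comparison, and their part was not tested.

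The lowest detected members of Δe13 minus wild type were ZSCAN22 (-0.44), ZSCAN31 (-0.43), ZBTB24 (-0.42), ZBTB21 (-0.37) and ZSCAN5A (-0.32). The highest were ZBTB5 (0.19), ZBTB25 (0.16), ZSCAN18 (0.14), ZBTB7B (0.14) and ZBTB7C (0.12). These values are from highest probe sets. Probe sets above the floor ran from -0.36 to 0.14 for ZBTB7B and from -0.37 to 0.14 for ZBTB21, so their direction depended on the probe set. Of the 22 members with at least 2 such probe sets, 12 had all of them in the same direction in this comparison and 10 did not. ZSCAN31 and, on its highest probe set, ZSCAN22 were below the control in the Δe13 array and above it in the wild-type array. By contrast, ZBTB24, ZBTB21 and ZSCAN5A were above the control in both. Of the undetected members ZSCAN16 (0.61) and ZSCAN23 (0.60) had the largest positive values, from signals of 4.49 and 3.92 in the Δe13 array, well below the floor.

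By position, 13 members lie on chromosome 6, 11 on chromosome 1 and 9 on chromosome 19, as listed by RefSeq. Of those on chromosome 6, 9 belong to a cluster of SCAN genes next to the major histocompatibility complex, which in order are ZSCAN16, ZKSCAN8, ZSCAN9, ZKSCAN4, ZSCAN26, ZSCAN31, ZKSCAN3, ZSCAN12 and ZSCAN23. The genes NKAPL and PGBD1 flank ZSCAN26, and ZNF165, itself a SCAN gene, precedes ZSCAN16. Of the 9 genes 5 were detected, with medians of 0.05 for Δe13 and 0.21 for wild type. The neighbours ZSCAN26, ZSCAN31 and ZKSCAN3 were higher in the wild-type array by 0.45, 0.21 and 0.52, as was PGBD1 by 0.32, while ZSCAN9 and ZKSCAN4 were at -0.05 each. The detected genes of the cluster were thus not all on one side of the control.

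**Figure D4:**
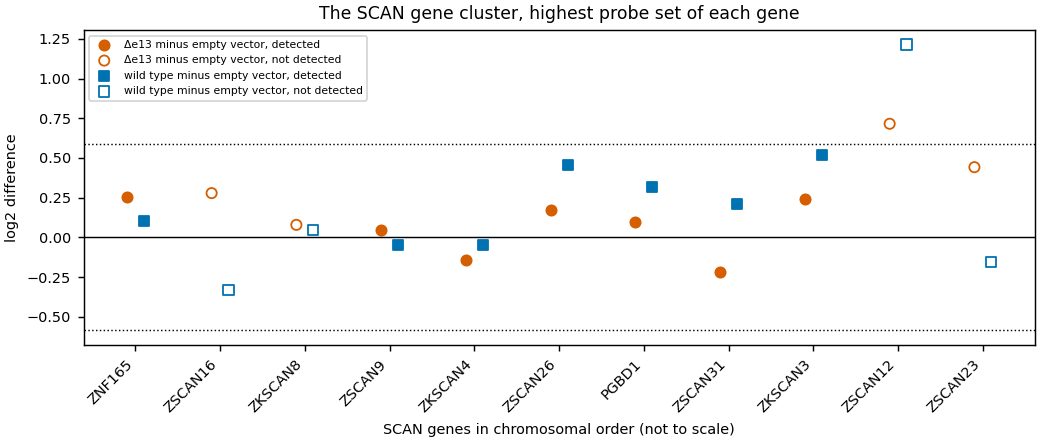
Log2 difference from the empty vector array of 11 SCAN genes in chromosomal order, for Δe13 (circles) and wild type (squares); open symbols are genes below the detection floor and dotted lines mark 1.5-fold. ZSCAN12 stands highest at 1.21 in the wild-type array, and ZSCAN9 and ZKSCAN4 lie near 0.

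Among probe sets above the floor those of ZSCAN9 differed most within a gene in both comparisons with the empty vector. Its highest probe set read 8.62, 8.53 and 8.57, or 0.05 and -0.05. Another probe set above the floor read 6.25, 6.81 and 5.59, which placed Δe13 0.66 and wild type 1.22 above the control. A further one below the floor gave 0.19 and 0.47. The part of the transcript that each of them reads is unknown here. Of the 22 members with at least 2 probe sets above the floor, 16 had all of them on the same side of the control for wild type and 11 for Δe13, and the median range between probe sets was 0.23 and 0.18.

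**Figure D5:**
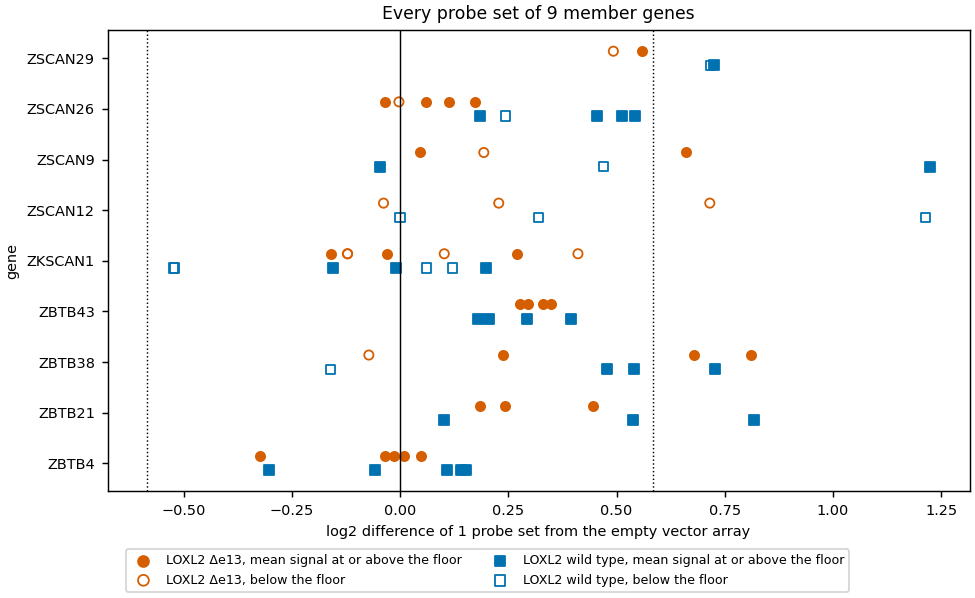
Log2 difference from the empty vector array of each probe set of 9 member genes, for Δe13 (circles) and wild type (squares); filled symbols have a mean signal at or above the floor and dotted lines mark 1.5-fold. ZBTB43 probe sets lie together, whereas ZSCAN9 spans -0.05 to 1.22 in the wild-type array.

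Genes of the SCAN and BTB families that carry other names were listed for comparison. Of 26 further genes with a SCAN domain 21 were detected, with 15 higher for Δe13 and 13 for wild type and medians of 0.09 and 0.10. ZNF232 was 1.5-fold or more above the control in the wild-type array (0.60), the 1 of these 21 genes to reach that size. Of all detected genes 1.91% did so, and of the 268 detected ZNF genes 22 did. ZNF274, which silences other zinc finger genes, was at 0.22 and 0.51. ZNF165 was highest in the Δe13 array, at 0.26. ZNF500 (-0.17 for Δe13), ZNF397 (-0.15 and -0.20) and MZF1 (-0.19 for wild type) were lowest. Of 7 further BTB zinc finger genes 6 were detected, with 3 higher and 3 lower in each LOXL2 array. GZF1 was at 0.35 and 0.53 and MYNN at 0.11 and 0.21, while HIC2 was at -0.25 and -0.35 and the tumour suppressor gene HIC1 at -0.19 and -0.33.

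Genes for proteins known to work with BTB or KRAB domains were listed as well. Of 13 detected genes for BTB corepressors and the ubiquitin ligase of CUL3, 6 were higher for Δe13 and 9 for wild type, with medians of 0.00 and 0.06. GPS2, a subunit of a histone deacetylase complex, was at 0.19 and 0.36, CTBP2 at 0.32 in the wild-type array and BCOR at 0.17 in the Δe13 array. TBL1X was lowest in the Δe13 array (-0.06), SIN3A in the wild-type array (-0.02), and HDAC1 was at -0.04 and -0.02. All 12 genes of the KRAB corepressor list were detected, with 5 and 6 higher and medians of 0.00 and 0.01. ATF7IP, which binds SETDB1, was at 0.31 and 0.45, TASOR of the HUSH complex at 0.38 in the wild-type array and PPHLN1 at 0.10 in the Δe13 array. SETDB1 was lowest at -0.21 and -0.28, followed by CHD3 at -0.16 and -0.25, and TRIM28 itself was at 0.03 in both. None of the 13 and 12 genes reached 1.5-fold in either array, where the background for wild type was 1.91% higher and 0.869% lower.

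Of the 69 symbols 3 do not name a SCAN or BTB zinc finger protein. ZBTB8OS lies beside ZBTB8A and encodes archease, a cofactor of tRNA ligation, and it read 10.33, 10.37 and 10.10. Its 4 probe sets above the floor were higher than the control in both LOXL2 arrays, by 0.17 to 0.23 and by 0.27 to 0.43. The antisense RNA ZBTB7C-AS2 (mean 4.97) and the pseudogene ZKSCAN8P1 (mean 5.69) were not detected. Without these 3 symbols 45 of the members were detected, and the counts past 1.5-fold did not change.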

How the data were processed

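The authors deposited log2 signals per probe set. RMA is named in the submitters' processing notes; it corrects for background, quantile normalizes and combines the probes of a set. The sources used here give no version. The range of 2.07 to 14.56 shows the log2 scale. RMA gives arrays like distributions, so a shift of most genes would not show. Of 49395 probe sets 102 were controls, 44988 had a single symbol, 1832 several and 2473 none listed. Symbols were those of the platform annotation; updating them through Entrez IDs in RefSeq changed 0 of the 69 members. Named members were the 8 highest and 8 lowest detected ones per comparison with the empty vector, 5 and 5 between the LOXL2 forms, the 5 highest by signal per prefix, undetected ones at 2-fold, a list of well-known members and up to 2 per direction of the other lists. Any other member named was added after its values were seen. Members and lists were chosen with earlier results of these data known. The fold rule was run on simulated data with planted shifts. The simulation held no variation between cultures, so it does not measure how reliable the rule is for these arrays. Alternatives are in the closing part. Python 3.11.15, numpy 2.4.6, pandas 2.3.3, statsmodels 0.14.6 and matplotlib 3.10.9 were used.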

Additional observations from a re-analysis of the deposited data

How the results depend on the processing

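No paired analysis was possible because each group has 1 array, and for the same reason no array could be left out. Median centring, quantile normalization, loess on mean signal (span 0.3), another floor, the median over probe sets, 2-fold, updated symbols and leaving out 3 symbols were tried, and, chosen after seeing the data, leaving out probe sets with _s_at or _x_at suffixes. A value counted as moved beyond the probe set spread of its comparison, and a count beyond 1.5 times. Of the values for groups of members 192 did not move and 24 did. Some of the 192 could not move. Updating symbols changed 0 of the members, 2-fold alters only the counts past the bound, and loess did not alter which members were detected. The 192 is thus no measure of how stable the results are.

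With the floor at the 75th percentile, which leaves fewer genes, 15 members were detected, 1 ZSCAN, 1 ZKSCAN and 13 ZBTB. ZSCAN medians became 0.047 (Δe13 minus empty vector), -0.046 (wild type minus empty vector) and 0.093 (between the forms), ZKSCAN medians -0.16 for both LOXL2 arrays, and 1 member was 1.5-fold higher in the wild-type array. With no floor, ZKSCAN medians were -0.017 for Δe13 and -0.0016 for wild type, and 1 member was 1.5-fold higher for Δe13 than for the empty vector and 2 than for wild type. With the median over probe sets 6 ZSCAN and 2 ZKSCAN genes were detected, ZSCAN medians were 0.55 for wild type and -0.36 between the forms, the ZKSCAN median was 0.23 for wild type, and 2 members were 1.5-fold higher for Δe13. ZSCAN12 turned from 0.72 to -0.038 for Δe13 there. Members 1.5-fold higher in the wild-type array numbered 4 after centring and 4 after loess, where ZBTB2 and ZSCAN5A passed the bound, 0 at 2-fold and 1 without shared probe sets. The cause of these changes was otherwise not tested. Of 1077 alternative values for 45 named members 65 moved and 56 had the opposite sign, 40 of these from differences within 0.1 of 0. ZSCAN12 alone turned from a difference past 1.5-fold. With the median over probe sets, which takes in sets below the floor, ZSCAN30 turned to -0.031 and ZKSCAN2 to -0.11 for wild type, and ZKSCAN5, ZBTB17 and ZBTB46 turned for both LOXL2 arrays. In that setting the median of all members for Δe13 was -0.0081 and that of ZBTB genes -0.026, changes within the probe set spread. Signals near the floor limit what folds can show.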
